A study of Mus musculus with 7 samples.

Results

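The genes described here are 10 that encode positive acute phase proteins of the liver or report on the signal that induces them: the serum amyloid A genes Saa1, Saa2, Saa3 and Saa4, the orosomucoid genes Orm1, Orm2 and Orm3, haptoglobin (Hp), lipocalin 2 (Lcn2) and Socs3. They were chosen by name, as the probes of the array whose gene symbol is one of these 10, and 1 probe was found for each among 55681 probes and 36492 gene names. Their expression was measured in single-colour Agilent arrays, 1 array per mouse, in livers of 3 wild-type (WT) and 4 SHIVA mice. All mice were females on the C57BL/6 background, 8 to 12 weeks old, and had been fasted for 24 h, so that all comparisons are within the fasted state. SHIVA mice carry a Sox17 mutation that arose by chemical mutagenesis with N-ethyl-N-nitrosourea and was selected for a dominant lowering of serum Vanin-1. The study's methods describe the viable mutants as heterozygous and the line as kept by crossing SHIVA males to C57BL/6 females, while the labels give no zygosity for the 4 animals. The comparison asks which transcripts of the fasted liver differ when this endodermal and endothelial transcription factor is mutated.

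The acute phase response is the change in plasma protein synthesis that the liver makes after infection, injury or other stress. Interleukin-6 family cytokines act on hepatocytes through the shared receptor gp130 and the transcription factor STAT3, and interleukin-1 and tumour necrosis factor act through NF-kB, while C/EBP factors bind the promoters of many of the induced genes. SAA1 and SAA2 are apolipoproteins of high-density lipoprotein and are among the most strongly induced proteins of this response, whereas SAA4 is known as a constitutive member of the family. Orosomucoids are small plasma proteins that bind drugs and lipids, haptoglobin binds free haemoglobin, lipocalin 2 binds bacterial siderophores, and SOCS3 is the feedback inhibitor that STAT3 induces on gp130 receptors.

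On mm9, the build of the array files, the Saa probes lie in 1 cluster on chromosome 7. The Saa3 probe is at chr7:53970389-53970448, the Saa4 probe at chr7:53983662-53983721, the Saa1 probe at chr7:53996070-53996129 and the Saa2 probe at chr7:54009622-54009681. The orosomucoid probes form a cluster on chromosome 4, with Orm1 at chr4:63006483-63007090, Orm3 at chr4:63018910-63020393 and Orm2 at chr4:63024979-63025038. The Orm1 and Orm3 probes span 608 and 1484 bases of genome with a 60-base probe, so both cross an intron. The other probes map to single stretches, Hp at chr8:112099045-112099104, Lcn2 at chr2:32240199-32240258 and Socs3 at chr11:117827480-117827539.

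The RefSeq promoter table of GRCm38.p6 holds 8 of the 10 genes, without Orm1 and Hp. The 250 bases before the start are shown for the pair whose values moved most between livers (Saa1 and Saa2) and for the family member that moved differently (Saa4). They are also shown for 2 orosomucoid genes whose fitted differences between genotypes had opposite signs (Orm2 and Orm3), though neither difference was called. Capitals mark the letters TTGCNNAA, a core of C/EBP sites, and the letters TATAAA of the TATA box. The windows are chr7:46742981-46743230 on the minus strand, chr7:46751583-46751832 on the plus strand, chr7:46732604-46732853 on the minus strand, chr4:63362199-63362448 on the plus strand and chr4:63355908-63356157 on the plus strand, each printed 5′ to 3′ along the gene.
Saa1: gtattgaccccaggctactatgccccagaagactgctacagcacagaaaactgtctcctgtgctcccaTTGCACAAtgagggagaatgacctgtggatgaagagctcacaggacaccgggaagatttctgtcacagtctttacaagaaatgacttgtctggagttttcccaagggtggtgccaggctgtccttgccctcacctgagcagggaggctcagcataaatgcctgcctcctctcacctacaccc
Saa2: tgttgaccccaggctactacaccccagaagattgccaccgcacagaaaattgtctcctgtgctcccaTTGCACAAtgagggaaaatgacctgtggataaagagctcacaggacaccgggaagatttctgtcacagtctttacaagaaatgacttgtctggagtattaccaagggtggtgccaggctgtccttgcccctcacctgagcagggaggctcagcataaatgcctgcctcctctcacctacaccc
Saa4: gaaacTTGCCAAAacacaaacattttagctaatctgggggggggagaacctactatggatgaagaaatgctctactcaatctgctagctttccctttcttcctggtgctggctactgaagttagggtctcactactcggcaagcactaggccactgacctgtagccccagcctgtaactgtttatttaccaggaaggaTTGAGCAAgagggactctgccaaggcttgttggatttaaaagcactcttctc
Orm2: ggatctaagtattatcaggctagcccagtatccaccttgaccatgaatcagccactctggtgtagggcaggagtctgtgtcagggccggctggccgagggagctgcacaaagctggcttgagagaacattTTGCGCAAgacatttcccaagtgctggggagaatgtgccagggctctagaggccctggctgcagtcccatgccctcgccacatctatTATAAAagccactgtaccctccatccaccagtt
Orm3: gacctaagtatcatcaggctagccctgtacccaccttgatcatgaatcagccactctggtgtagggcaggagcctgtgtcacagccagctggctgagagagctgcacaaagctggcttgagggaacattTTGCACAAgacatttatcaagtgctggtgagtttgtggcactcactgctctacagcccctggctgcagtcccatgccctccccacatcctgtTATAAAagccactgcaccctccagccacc
The Saa1 and Saa2 windows were identical at 238 of 249 aligned bases, 95.6%, and those of Orm2 and Orm3 at 219 of 245, 89.4%. Saa1 and Saa4 shared 70.8% of aligned bases, which is below the 72.9% of Saa1 and Orm3, genes of different families, in the same gapped alignment. TTGCNNAA, read on both strands, was present in 7 of the 8 windows and in 9.56% of 32851 promoter windows of the same length. Both Saa1 and Saa2 hold TTGCACAA, starting at -182 and -183 from the gene start. Saa4 holds it as TTGCCAAA at -245 and as TTGCTCAA on the opposite strand from -52 to -45. The 7 windows include closely related copies, so they are not independent. TTCNNNGAA, a STAT site, was found in Socs3 alone of the 8, as TTCTTAGAA from -154 to -146, against 7.02% of all windows. TATAAA was found in Orm2 and Orm3, against 12.4% of all windows. No 2 motifs overlapped in these windows. These matches are letters in a window and were not tested for binding.

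Of 36492 gene names, 20002 passed the filter on dim probes (well above background on 3 or more arrays) and were tested by limma, a linear model across all genes. At an adjusted p under 0.05, 75 genes were called, 37 higher and 38 lower in SHIVA livers. That count depended on some single livers, since it was 423 without WT 3, 13 without SHIVA 3, 8 without WT 2, 7 without SHIVA 1 and 3 without WT 1. It changed less without SHIVA 2, to 61, and without SHIVA 4, to 54. Over all tested genes WT 3 correlated at 0.988 to 0.989 with SHIVA 1, SHIVA 3 and SHIVA 4 and at 0.982 and 0.984 with the other WT livers, so 1 WT liver stood nearer to 3 of the SHIVA livers than to its own genotype. All arrays were on 1 slide, WT in 1 row and SHIVA in the other, and the place on the slide cannot be told apart from the genotype. Sox17 itself, whose probe cannot show a point mutation, had log2 intensities of 3.42 to 4.53 in WT and 4.47 to 4.77 in SHIVA livers (log2 fold change 0.69, limma adjusted p = 0.28), and the log2 fold change of this dim probe was 0.24 with the mean signal and 0.094 with the normexp background correction. In bulk liver, fewer cells of a type and less RNA per cell cannot be told apart.

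All 10 acute phase probes were well above background on all 7 arrays, and 0 spots were saturated. In the comparison of genotypes 0 of the 10 passed an adjusted p of 0.05, beside 0.375% of all genes tested. At an unadjusted limma p under 0.05 there was 1, Lcn2, beside 13.3% of all genes, and by the methods' t-test there were 0, beside 11.5% of all genes at an unadjusted p under 0.05 and 0% after adjustment. The WT and SHIVA livers overlapped for each of the 10, beside 12.2% of all genes without overlap. The fitted log2 fold change, SHIVA over WT, was above 0 for 9 of the 10, beside 48.8% of all genes. The widest differences lay within the SHIVA livers, where SHIVA 2 had the highest value of the 7 livers for 9 of the 10, beside 20.3% of all genes. Levels are log2 normalised intensities throughout, and they are not compared between probes.

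**Figure D1:**
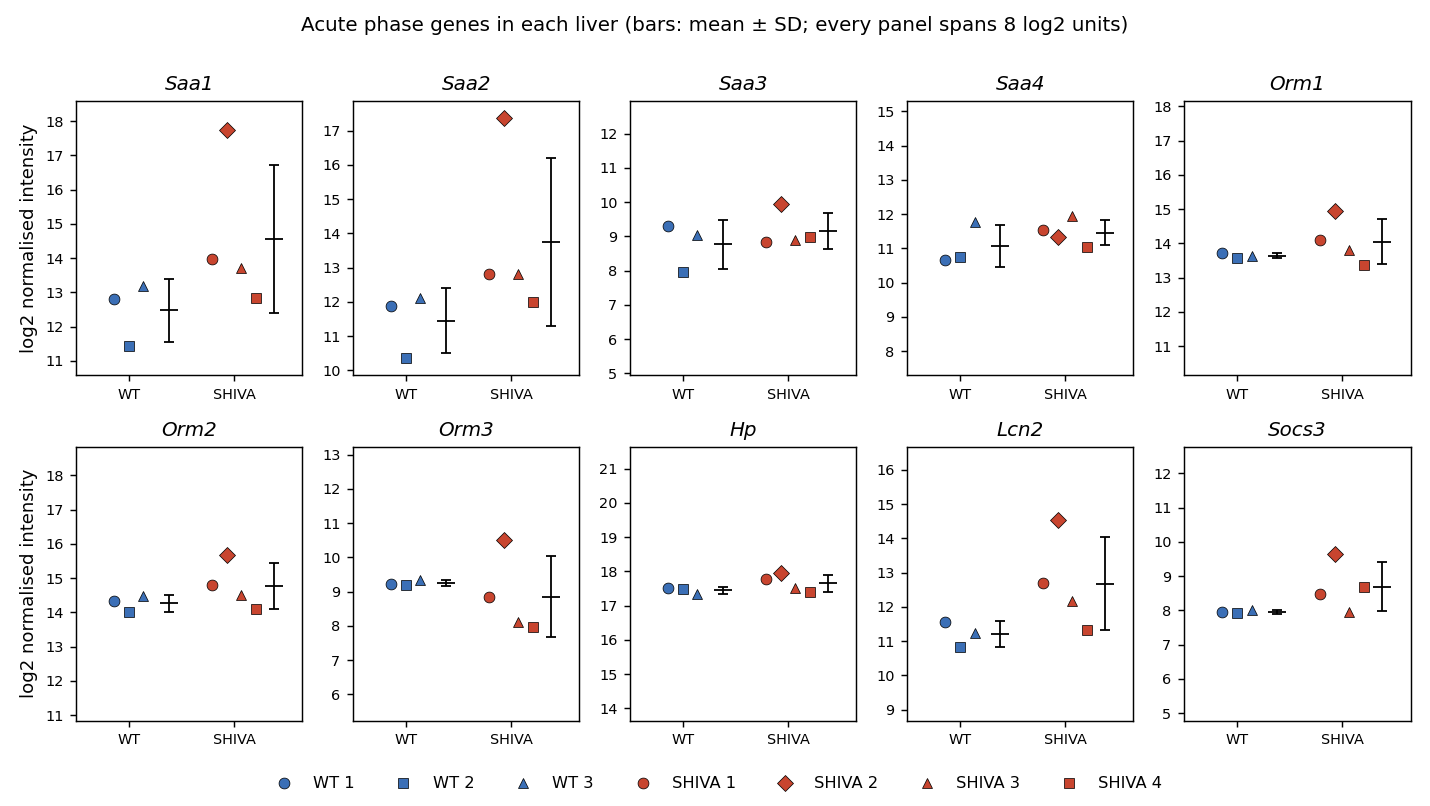
Log2 normalised intensity of each of the 10 genes in the 3 WT livers (blue) and 4 SHIVA livers (red), with the mean ± SD of each genotype in black and 8 log2 units on every vertical axis. SHIVA 2 (diamond) is the highest liver in every panel but that of Saa4, and WT 2 (blue square) is the lowest for Saa1, Saa2 and Saa3.

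Saa2 had the widest range of the 10 genes. Its log2 intensity was 11.87, 10.36 and 12.11 in WT 1 to 3 and 12.81, 17.36, 12.82 and 11.99 in SHIVA 1 to 4. SHIVA 2 was 23.3-fold above the next liver, while the other 3 SHIVA livers lay close to each other, SHIVA 4 between the WT livers. WT livers averaged 11.45 ± 0.95 (SD, n = 3) and SHIVA livers 13.74 ± 2.44 (SD, n = 4), which gives a log2 fold change of 2.29 with a standard error of 1.17 and a limma adjusted p of 0.45. Without SHIVA 2 the log2 fold change was 1.09 (limma adjusted p = 0.398).

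Saa1, the gene next to Saa2, gave the same picture. Its log2 intensity was 12.82, 11.44 and 13.19 in WT 1 to 3 and 13.97, 17.74, 13.71 and 12.83 in SHIVA 1 to 4. SHIVA 2 was 13.6-fold above the next liver, and WT 2 was the lowest of all. The log2 fold change was 2.08 with a standard error of 1.05 and a limma adjusted p of 0.445, and 1.02 without SHIVA 2 (limma adjusted p = 0.445). The order of the livers was that of Saa2 except that SHIVA 1 and SHIVA 3 changed places, and after each gene was centred on its own mean the pair differed by a root mean square of 0.24 log2 units over the 7 livers. Saa1 and Saa2 are near-identical transcripts, and how far each probe also captures the other was not tested, so they may not be separate measurements.

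Saa3, which in mice is also made by macrophages and fat cells, had log2 intensities of 9.30, 7.95 and 9.05 in WT and 8.83, 9.95, 8.88 and 8.98 in SHIVA livers. The highest value was again in SHIVA 2, but only 1.57-fold above the next liver, WT 1, and the other 3 SHIVA livers lay within the range of the WT livers. SHIVA over WT, the log2 fold change was 0.39 with a standard error of 0.38 (limma adjusted p = 0.719), and it was -0.01 without WT 2, the liver with the low value, and 0.13 without SHIVA 2.

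Saa4 did not share the pattern of its neighbours. Its log2 intensity was 10.67, 10.74 and 11.77 in WT 1 to 3 and 11.54, 11.35, 11.94 and 11.03 in SHIVA 1 to 4, so SHIVA 2 was the 4th lowest of the 7 livers and SHIVA 3 the highest. WT 3 lay 1.06 log2 units above the median of the other WT livers. The log2 fold change was 0.40 with a standard error of 0.31 (limma adjusted p = 0.626), from 0.21 without WT 1 to 0.76 without WT 3. Between SHIVA 2 and the median of the other SHIVA livers the difference was -0.19 for Saa4 and 4.03 for Saa1.

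The orosomucoid genes Orm1 and Orm2 followed SHIVA 2 over a smaller range. Orm2 had 14.32, 13.998 and 14.46 in WT 1 to 3 and 14.80, 15.68, 14.52 and 14.08 in SHIVA 1 to 4. SHIVA 2 was 1.84-fold above the next liver, and SHIVA 4 lay between the WT livers. For Orm2 the fitted log2 fold change was 0.51 with a standard error of 0.34 (limma adjusted p = 0.571), and 0.21 without SHIVA 2. Orm1 had 13.72, 13.58 and 13.63 in WT and 14.09, 14.93, 13.80 and 13.38 in SHIVA livers, for a fitted difference of 0.41 log2 units with a standard error of 0.32 (limma adjusted p = 0.64), and 0.12 without SHIVA 2. SHIVA 4 was the lowest of the 7 for Orm1. The centred patterns of Orm1 and Orm2 differed by a root mean square of 0.12 log2 units, and these paralogs too may share signal, which was not tested.

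Orm3, the third orosomucoid gene, differed from the other two in the remaining SHIVA livers. Its log2 intensity was 9.23, 9.19 and 9.34 in WT 1 to 3 and 8.85, 10.52, 8.10 and 7.95 in SHIVA 1 to 4. SHIVA 2 was again the highest, 2.26-fold above the next liver, while SHIVA 1, SHIVA 3 and SHIVA 4 lay below every WT liver. The WT livers were close, 9.26 ± 0.08 (SD, n = 3), and the SHIVA livers wide, 8.86 ± 1.17 (SD, n = 4). The log2 fold change was -0.40 with a standard error of 0.55 (limma adjusted p = 0.805), -0.95 without SHIVA 2 (limma adjusted p = 0.216) and -0.10 without SHIVA 4. Setting SHIVA 2 aside was chosen after seeing the data, and it left Orm3 as the 1 gene of the 10 without overlap in the lower direction, beside 8.41% of all genes, and 0 of the 10 in the higher direction, beside 8.29%.

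Haptoglobin had the narrowest range of the 10 genes. Its values lay near the top of the scale, where albumin (Alb) had 18.26 to 18.39 over the 7 livers. How well the arrays show differences at that level was not tested, so the narrow range need not mean a steady transcript. Hp had 17.50, 17.48 and 17.34 in WT 1 to 3 and 17.77, 17.95, 17.50 and 17.40 in SHIVA 1 to 4. SHIVA 2 was the highest, 1.13-fold above SHIVA 1, and the whole range over the 7 livers was 0.61 log2 units. Its log2 fold change was 0.21 with a standard error of 0.17 (limma adjusted p = 0.644), and 0.11 without SHIVA 2.

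Lcn2, which encodes an iron-scavenging protein made by injured hepatocytes and also stored in neutrophil granules, had the smallest adjusted p of the 10. Its log2 intensity was 11.57, 10.83 and 11.23 in WT 1 to 3 and 12.71, 14.53, 12.17 and 11.32 in SHIVA 1 to 4. SHIVA 2 was 3.52-fold above the next liver, SHIVA 1 and SHIVA 3 lay above every WT liver, and SHIVA 4 lay below WT 1. Lcn2 had a log2 fold change of 1.47 with a standard error of 0.64 and a 95% interval of 0.01 to 2.93 (limma adjusted p = 0.373). Without SHIVA 2 it was 0.85 (limma adjusted p = 0.392).

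Socs3, the inhibitor of gp130 signalling, was almost constant in WT livers. It had 7.95, 7.92 and 8.02 in WT 1 to 3 and 8.49, 9.65, 7.94 and 8.69 in SHIVA 1 to 4. SHIVA 2 was 1.94-fold above the next liver, SHIVA 1 and SHIVA 4 lay above every WT liver, and SHIVA 3 lay within them. For Socs3 the log2 fold change was 0.73 with a standard error of 0.34 (limma adjusted p = 0.412), and 0.41 without SHIVA 2. In contrast to Saa1, Lcn2 and the orosomucoid genes, SHIVA 4 was the second highest liver for Socs3.

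**Figure D2:**
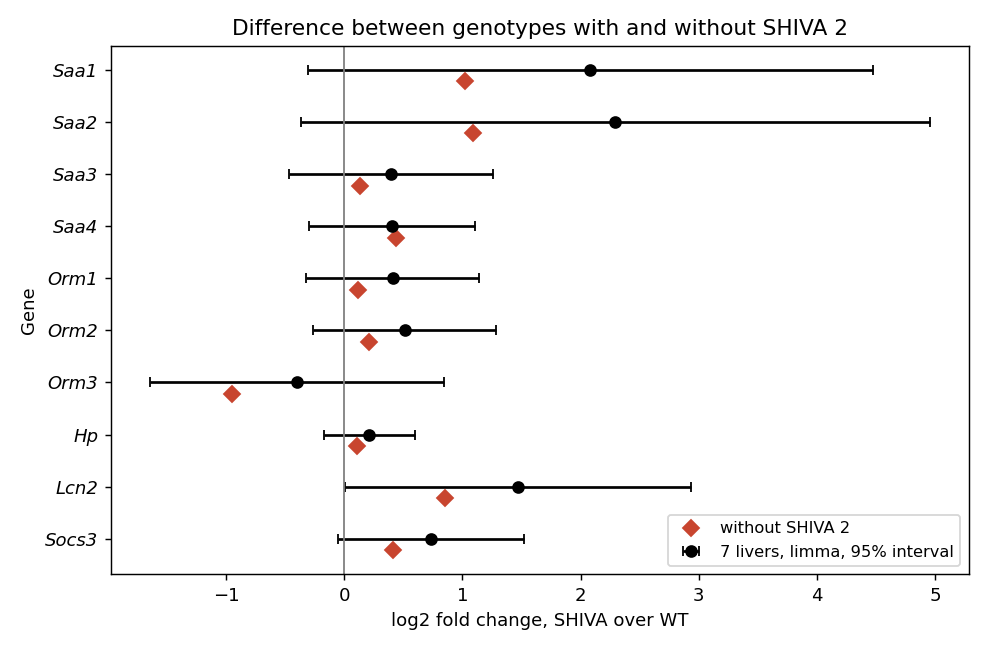
Log2 fold change, SHIVA over WT, of each gene from the 7 livers (black points, with the 95% interval of the limma fit) and without SHIVA 2 (red diamonds). Every interval but that of Lcn2 includes 0, and without SHIVA 2 the values of Saa1 and Saa2 fall from 2.08 and 2.29 to 1.02 and 1.09 while that of Orm3 moves from -0.40 to -0.95.

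The spread within a genotype was described by the deviation of each liver from the median of the other livers of its genotype. For SHIVA 2 it exceeded 2-fold upwards for 8 of the 10 genes, all but Saa4 and Hp, beside 1.58% of all genes tested. Saa2 had the highest deviation of SHIVA 2 among 20002 genes, 4.55 log2 units or 23.5-fold, and Saa1 the next, 4.03 log2 units or 16.3-fold. Orm3 ranked 10 with 2.41 and Lcn2 ranked 12 with 2.36. For Orm2, Socs3, Orm1 and Saa3 the deviation of SHIVA 2 was between 1.07 and 1.16, and for Hp it was 0.44. These ranks describe a single liver, whose high Saa2 was known when the genes were chosen, and no test stands behind them.

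The other livers deviated for fewer of the 10 genes. WT 2 was more than 2-fold below the other WT livers for Saa1, Saa2 and Saa3, 3 of 10 beside 1.96% of all genes, and was the lowest of the 7 livers for 6 of the 10, beside 16.1%. WT 3 was more than 2-fold above for Saa1 and Saa4, 2 of 10 beside 2.66%. SHIVA 4 was more than 2-fold below the other SHIVA livers for Saa1 and Lcn2, 2 of 10 beside 1.68%, while SHIVA 1 and SHIVA 3 stayed within 2-fold for every gene of the 10. The serum amyloid genes thus varied between the WT livers as well, with deviations of WT 2 of -1.56 for Saa1 and -1.63 for Saa2.

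**Figure D3:**
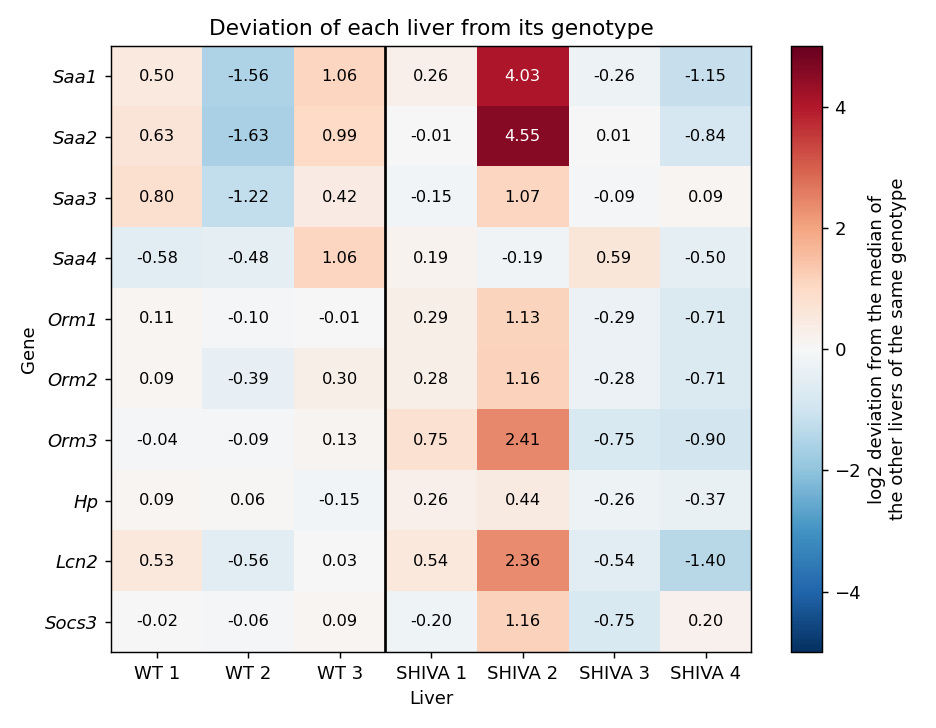
Log2 deviation of each liver (columns) from the median of the other livers of its genotype, for the 10 genes (rows), in red where higher and blue where lower. The column of SHIVA 2 is red in every row but Saa4, with 4.55 for Saa2 and 4.03 for Saa1, and the column of WT 2 is blue for Saa1, Saa2 and Saa3.

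The genes whose pattern over the 7 livers lay nearest to that of Saa2, Orm2 and Socs3 were sought by the root mean square difference of the centred log2 values. Genes outside the 10 were farther from Saa2 than Saa1 and Lcn2 were. The closest were Uhrf1, N4bp1, Gspt2 and Cep55, with differences of 1.02 to 1.13, against 0.24 for Saa1 and 0.96 for Lcn2, and their probes were well above background on 3 or 4 arrays. The fifth was a transcript without a gene symbol at 1.20, well above background on 3 arrays. Uhrf1 passed the filter only through SHIVA 1, SHIVA 2 and SHIVA 3, and the fifth only through SHIVA 2, SHIVA 3 and SHIVA 4. Both were thus searched only because they were high in SHIVA livers, and their nearness to Saa2 says nothing beyond that. Orm2 had neighbours as near as Orm1, with Rab19 at 0.11, Gm9252 at 0.11, the eosinophil ribonuclease genes Ear2 at 0.14 and Ear10 at 0.15, and Kif21b at 0.15. For Socs3 the nearest genes were the fractalkine receptor gene Cx3cr1 at 0.11, Plk2 at 0.16, Postn at 0.18 and Hoxa11os at 0.19, with an unannotated intergenic transcript at 0.15. Ear2 had 9.44 in SHIVA 2 and 7.82 to 8.67 in the other livers, and Cx3cr1 had 5.95 in SHIVA 2 and 4.13 to 5.17 in the others.

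The other positive acute phase proteins of the liver were read from a list of 29 genes, of which 26 were tested. By limma 0 of the 26 were called, with 9 higher and 0 lower at an unadjusted p under 0.05, and by the methods' t-test 7 had an unadjusted p under 0.05. The fitted log2 fold change was above 0 for 21 of the 26, with a median of 0.43, and 0.41 without SHIVA 2, beside a median of -0.01 over all genes. SHIVA 2 was more than 2-fold above the other SHIVA livers for 2 of the 26, Mt2 and Fgl1, beside 1.58% of all genes, and the highest of the 7 livers for 11, beside 20.3%, with a median deviation of 0.06. In 15 of the 26 SHIVA 4 was the lowest SHIVA liver, but the share over all genes was not computed, so this count is only a description.

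In 5 of the 26 genes every SHIVA liver lay above every WT liver, beside 6.14% of all genes, and in 2 every SHIVA liver lay below, beside 6.02%. The 5 were haemopexin (Hpx), serum amyloid P (Apcs), the inter-alpha-trypsin inhibitor chain Itih3, complement C3 and the interleukin-1 receptor antagonist Il1rn, and the 2 were Serpina3m and Serpina1d. Apart from Serpina3m these names, like Fgb and Fgg below and the names other than Apoa4 in brackets for the negative proteins, were taken after their values were seen. Steap4, a metalloreductase gene, had the highest log2 fold change of the list, 1.16 (limma adjusted p = 0.283), with 6.87 to 8.14 in WT and 7.69 to 9.26 in SHIVA livers, which overlapped. Hpx had 16.93 to 17.28 in WT and 17.36 to 17.87 in SHIVA livers, a difference of 0.47 on the log2 scale (limma adjusted p = 0.283). Itih3 had a log2 fold change of 0.75 (limma adjusted p = 0.216), Il1rn 0.67 (limma adjusted p = 0.173), which was 0.25 with normexp, and Serpina3m -0.29 (limma adjusted p = 0.429). Only Il1rn passed the adjusted threshold in any leave-one-out fit of these 7 genes, without WT 3 (limma adjusted p = 0.041).

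Fibrinogen chains separated the SHIVA livers in another way. Fgb had 17.48, 17.78 and 17.71 in WT 1 to 3 and 18.27, 18.26, 18.26 and 17.74 in SHIVA 1 to 4, so 3 SHIVA livers lay together above the WT livers and SHIVA 4 lay among them. Fgg behaved alike, with 17.65, 17.57 and 17.59 in SHIVA 1 to 3 and 17.05 in SHIVA 4, against 16.60 to 17.11 in WT livers. Their log2 fold changes were 0.47 and 0.55 (limma adjusted p = 0.309 and 0.297). Fgb lay near the top of the scale, as Hp did, where how well the arrays show differences was not tested. Its small fold change thus need not mean a small change of the transcript. The study describes Sox17 as a repressor of Fgb during development. By qRT-PCR it reports Fgb mRNA as elevated in SHIVA livers, by more than on these arrays. Fga had 15.53 and 15.61 in SHIVA 1 and SHIVA 3 but 14.21 and 14.20 in SHIVA 2 and SHIVA 4, and its SHIVA 2 deviation of -1.33 was the lowest of the list. Mt2, a metal-binding stress protein, had the highest, with 16.81 in SHIVA 2 and 15.13 to 15.53 in the other SHIVA livers.

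The negative acute phase proteins, which the liver makes less of during the response, were read from 15 genes, all tested. By limma 0 were called. At an unadjusted p under 0.05 there were 1 higher and 3 lower by limma and 6 by the methods' t-test. Of all genes 13.3% and 11.5% reached that p. The median log2 fold change was -0.07, with 6 of the 15 above 0. In 5 of the 15 (Ttr, Apoa4, Apoc3, Ahsg and Pon1) every SHIVA liver lay below every WT liver, beside 6.02% of all genes. Apart from Apoa4 these differences were small, with log2 fold changes of -0.07 for Ahsg, -0.28 for Apoc3, -0.32 for Ttr and -0.35 for Pon1. Apoa4, an apolipoprotein of gut and fasted liver, had the lowest log2 fold change, -1.19 (limma adjusted p = 0.235), with 11.55 to 12.74 in WT and 10.05 to 11.39 in SHIVA livers. Its lowest value was in SHIVA 2. Serpina6, the corticosteroid-binding globulin, had the highest, 0.87 (limma adjusted p = 0.37), with 11.94, 12.23 and 13.63 in WT livers and 13.17 to 13.80 in SHIVA livers. It was 1.39 without WT 3 (limma adjusted p = 0.0279) and 0.54 without WT 1 (limma adjusted p = 0.665).

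**Figure D4:**
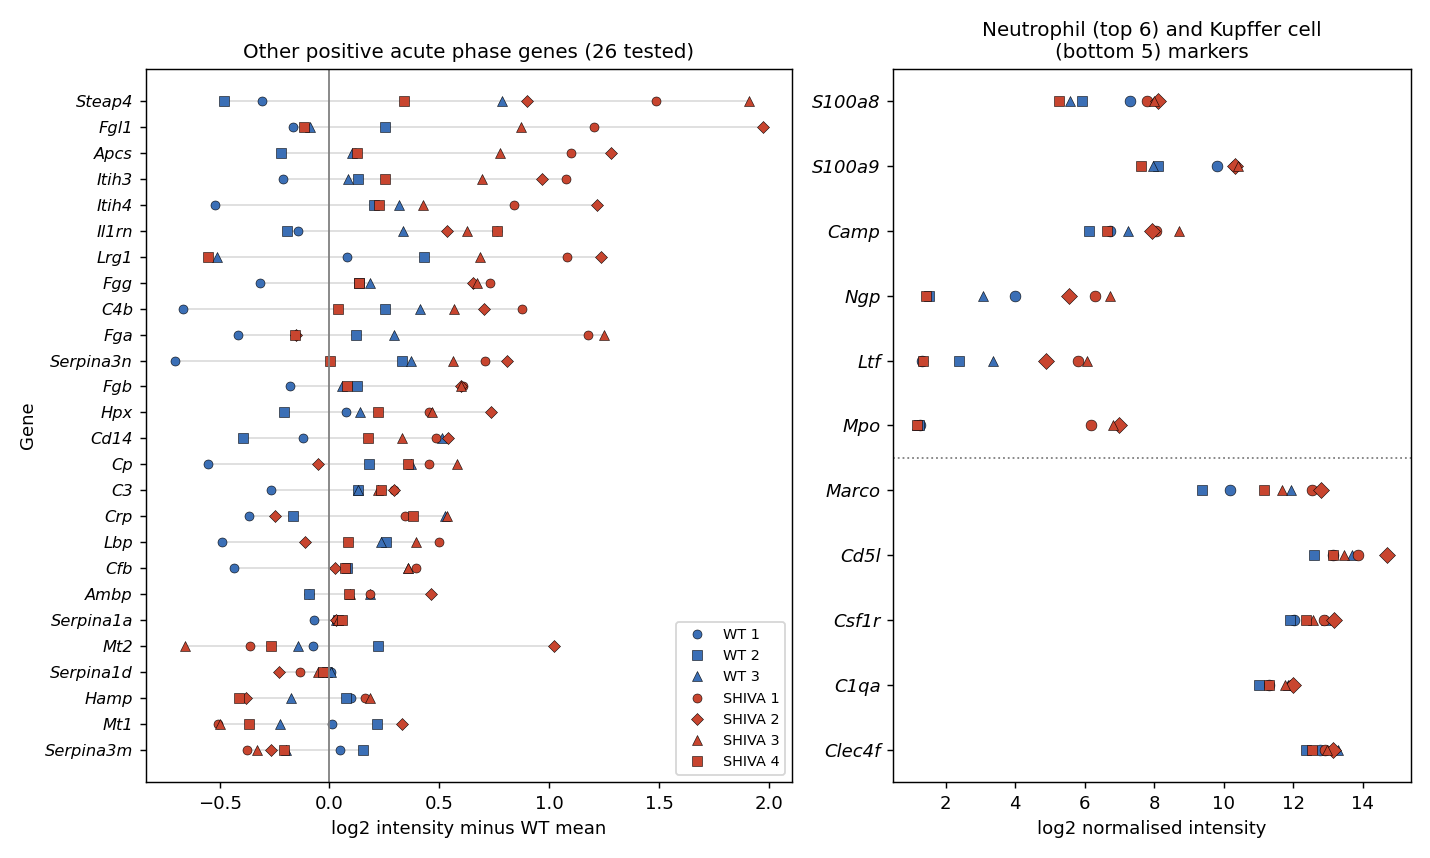
Left, log2 intensity of the 26 tested other positive acute phase genes in each liver minus the mean of the WT livers, ordered by fold change. Right, log2 normalised intensity of a selection of markers in each liver, 6 of 9 tested for neutrophils and 5 of 12 for Kupffer cells. Left out are Elane and Csf3r, which varied little, and Retnlg, highest in WT 1. Of the Kupffer list Cd163, lower in every SHIVA liver, is among those left out. Mpo, Ngp and Ltf passed the filter on dim probes only through SHIVA 1 to 3. Mpo is above 6 in SHIVA 1 to 3 and below 2 in the other 4 livers. SHIVA 2 has the highest Marco, Cd5l, Csf1r and C1qa.

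The ligands of the interleukin-6 family were mostly at the limit of the arrays. Of 9 genes 5 were tested, since Il6, Il11, Lif and Osm were well above background on fewer than 3 arrays, Il6 on 1. By limma 0 of the 5 were called, with 1 higher at an unadjusted p under 0.05 and 0 by the methods' t-test. Il27 had the highest log2 fold change, 0.66 (limma adjusted p = 0.302), Ctf1 the lowest, -0.08, and Clcf1 and Il22 had 0.26 and 0.07. Of 12 receptor and signal genes 11 were tested and 0 called, with 3 higher at an unadjusted p under 0.05 and 3 by the methods' t-test, and a median log2 fold change of 0.34. Osmr, the oncostatin M receptor, had 6.17 to 6.34 in WT and 6.74 to 7.25 in SHIVA livers without overlap, and its log2 fold change was 0.76 (limma adjusted p = 0.12), and 0.45 with normexp. Jak2 had a log2 fold change of 0.42 (limma adjusted p = 0.322), and Cntfr the lowest of the list, -0.41, which was -0.04 with normexp.

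Among 9 other SOCS genes and inhibitors of STAT3, 0 were called by limma, 2 were higher at an unadjusted p under 0.05, 1 by the methods' t-test, and the median log2 fold change was 0.18. Cish, which STAT5 induces, had 6.22 to 6.96 in WT and 7.32 to 8.05 in SHIVA livers without overlap, with its highest value in SHIVA 2 (log2 fold change 0.96, limma adjusted p = 0.182, and 0.63 with normexp). The log2 fold changes of Socs1, Socs2 and Socs4 were 0.37, 0.20 and -0.37, with overlap in each. Of 15 known STAT3 targets 0 were called, with 3 higher and 1 lower at an unadjusted p under 0.05 and 3 by the methods' t-test, and the median log2 fold change was 0.19, and 0.04 without SHIVA 2. The lower one was Pim1, a kinase gene, with 7.88 to 8.94 in WT and 6.07 to 7.17 in SHIVA livers, lowest in SHIVA 2 (log2 fold change -1.81, limma adjusted p = 0.0689). Over the alternatives the adjusted p of Pim1 ran from 0.0258, by limma without WT 3, to 0.311, by the methods' t-test. Fos had the highest log2 fold change, 2.134 (limma adjusted p = 0.182), but 0.90 with the mean signal and 0.58 with normexp, and WT 2, at 2.12, was the lowest liver. Myc had 0.19. Stat3 itself had 0.65 (limma adjusted p = 0.451), with 11.50 in SHIVA 2 and 12.12 to 12.63 in the other SHIVA livers.

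Of 10 interleukin-1 and tumour necrosis factor genes 9 were tested and 0 called by limma. At an unadjusted p under 0.05 there were 3 higher by limma and 2 by the methods' t-test, beside 13.3% and 11.5% of all genes. Among the 3 and among the 2 was Il1a, which was well above background on 0 WT and 4 SHIVA arrays. It entered the test only through the livers where it was high, so its place in these counts says nothing beyond that. Il1b had 4.39, 2.71 and 6.18 in WT and 6.38 to 7.53 in SHIVA livers (log2 fold change 2.57, limma adjusted p = 0.191), and the value ran from 1.06 with normexp to 3.45 without WT 3 (limma adjusted p = 0.0215), with 1.46 for the mean signal and 1.70 without WT 2. Il18 had 9.22 in SHIVA 2 and 7.91 to 8.45 in the other livers, Tnf a log2 fold change of 0.82, which was 0.18 with normexp, and Il1rap -0.17. Of 23 NF-kB factors and targets 21 were tested and 0 called. At an unadjusted p under 0.05 there were 5 by limma, all higher, and 6 by the methods' t-test, beside 13.3% and 11.5% of all genes. The groups did not overlap for 5, all higher, beside 6.14% of all genes. The chemokine genes Cxcl1 and Cxcl10 were among the 5, with log2 fold changes of 2.19 and 1.31 (limma adjusted p = 0.145 and 0.144), and 1.20 and 0.85 with normexp. Cxcl10 had its highest value in SHIVA 2, with 8.32, as did the other 3, Vcam1 with 10.86, Tnfaip3 with 6.17 and Tnip1 with 9.90, which were named after their values were seen. Cxcl1 had 6.89 in SHIVA 2 and 7.72 and 7.97 in SHIVA 1 and SHIVA 3. The C/EBP factor gene Cebpb had the lowest log2 fold change of this list, -0.31.

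Receptors and partners of the 10 proteins were read from 18 genes, of which 15 were tested and 0 called by limma, with 3 higher and 1 lower at an unadjusted p under 0.05 and 4 by the methods' t-test. Cd36, a scavenger receptor that binds serum amyloid A, had 7.91 to 8.13 in WT and 8.54 to 9.14 in SHIVA livers (log2 fold change 0.75, limma adjusted p = 0.147). Cd163, the haptoglobin-haemoglobin receptor of macrophages, had 5.13 to 5.72 in WT and 3.26 to 4.40 in SHIVA livers (log2 fold change -1.33, limma adjusted p = 0.124, and -0.42 with normexp), and Lrp1 had 0.46. Of 14 glucocorticoid receptor and target genes 13 were tested and 0 called, with 3 higher and 3 lower at an unadjusted p under 0.05 and 4 by the methods' t-test. Sgk1 had 8.76 to 9.14 in WT and 9.85 to 10.68 in SHIVA livers, highest in SHIVA 2 (log2 fold change 1.20, limma adjusted p = 0.0746). The adjusted p of Sgk1 ran from 0.0316, by limma with array weights, to 0.283, by the methods' t-test. Cdkn1a had -1.55 (limma adjusted p = 0.249), -2.19 without WT 3 (limma adjusted p = 0.0338), -1.15 without WT 2 (limma adjusted p = 0.581) and -1.09 as the mean of all its probes.

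Cells other than hepatocytes also make several of these proteins, so their markers were read beside the 10 genes. Of 13 Kupffer cell and macrophage markers 12 were tested and 0 called by limma. At an unadjusted p under 0.05 there were 1 higher and 1 lower by limma and 1 by the methods' t-test, beside 13.3% and 11.5% of all genes. SHIVA 2 was the highest liver for 9, beside 20.3% of all genes. The summed intensity of the list was 23965 to 49605 in WT livers, lowest in WT 2, and 32675 to 68829 in SHIVA livers, highest in SHIVA 2. Marco had 9.38 in WT 2 and 12.81 in SHIVA 2, and Cd5l 12.59 and 14.70. Clec4f, a defining marker of Kupffer cells, had 12.37 to 13.28 in WT and 12.55 to 13.14 in SHIVA livers. The Kupffer cell list thus had its lowest and highest sums in the livers with the lowest and highest Saa1 and Saa2, and its part in those values was not tested.

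Of 15 neutrophil markers 9 were tested and 0 called by limma, with 2 higher at an unadjusted p under 0.05, Camp and Mpo, and 0 by the methods' t-test. The granule genes Mpo, Ngp and Ltf were well above background in SHIVA 1, SHIVA 2 and SHIVA 3 and in none of the WT livers or SHIVA 4, so these 3 entered the test only through the livers where they were high and their counts say nothing beyond that. The summed intensity of the list was 17729 to 18580 in WT and 17347 to 20549 in SHIVA livers, but Csf3r, a receptor gene with nearly the same value in every liver, made up 84.9% to 94.4% of it. Without Csf3r the sum was 1874, 1074 and 1022 in WT 1 to 3 and 2522, 2647, 2981 and 997 in SHIVA 1 to 4, so 3 SHIVA livers lay above the WT livers and SHIVA 4 below them. S100a8 had 7.79 to 8.12 in SHIVA 1 to 3, 5.26 in SHIVA 4 and 5.57 to 7.31 in WT livers. S100a9 had 10.32 to 10.40 in SHIVA 1 to 3 and 7.63 in SHIVA 4. Not all tested markers of the list followed this pattern. The granule gene Elane had 9.03 to 9.285 in WT and 8.96 to 9.26 in SHIVA livers, lowest in SHIVA 1, and Retnlg was highest in WT 1, with 4.95. The part of neutrophil transcripts in the Lcn2 values, which were also lowest among the SHIVA livers in SHIVA 4, was not tested. Hepatocyte markers, 10 of 10 tested and 0 called by limma (1 higher and 1 lower at an unadjusted p under 0.05, 2 by the methods' t-test), summed to 1324400 to 1411200 in WT and 1413300 to 1472500 in SHIVA livers, with SHIVA 2 the lowest SHIVA liver. That sum includes the acute phase gene Fgb, with 17.48 to 17.78 in WT and 17.74 to 18.27 in SHIVA livers, and was not computed without it. The median log2 fold change of the hepatocyte list was -0.003. Of 7 adipose markers the defining genes Adipoq, Lep, Retn, Cfd and Plin1 were not tested, being well above background on fewer than 3 arrays.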

How the data were processed

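Liver RNA of 3 WT and 4 SHIVA mice was hybridised to 1 array each. The authors deposited the intensity of each spot, extracted with Agilent Feature Extraction 10.5.1.1 per the labels, and a table of log2 values that the methods describe as quantile normalised. On each array 44.5% to 48.7% of the probes exceeded background clearly, and the number of arrays limits the precision. Marked spots were left out and processed intensities were quantile normalised and log2 transformed (R 4.3.3). Genes, each represented by its brightest probe, were tested in limma 3.58.1 with Benjamini-Hochberg adjustment when that probe passed the scanner's background call on 3 or more arrays. Names were updated through RefSeq (GRCm38.p6). Fold changes are SHIVA over WT on the log2 scale.

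The 10 genes and all lists were chosen with earlier results of these data known. All 10 are described. From each list the text names called genes and the extremes of fold change and of SHIVA 2 deviation, and for Saa2, Orm2 and Socs3 the 5 nearest patterns. Some others were named after their values were seen, and 1 gene of the list of other positive acute phase proteins is not reported here. Promoter windows were aligned in Biopython 1.88. On simulated data with 19961 genes, the test called 87.5% of 200 genes changed by 2 log2 units. Those genes were drawn at random and shifted alike in every simulated SHIVA liver. The share is thus no measure of power for genes as widely spread as Saa1 and Saa2, with standard errors of 1.05 and 1.17. The alternatives were 75th percentile scaling, mean signal, normexp background correction (offset 50), the authors' table, other filters and probe rules, array weights, a replicate block, leaving out each liver, the methods' t-test and names as in the files.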

Additional observations from a re-analysis of the deposited data

Results flagged for a closer look

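In each of 83 genes, the 10 and those named from the lists, the highest and lowest of the 4 SHIVA livers were set against the other 3 by Dixon's ratio. Its 95% critical value for 4 samples was exceeded for 8 genes. Chance flags about 1 in 20 groups of unselected genes, but many of the 83 were named for the value of SHIVA 2 or after their values were seen, and genes that vary together are not independent, so no chance count applies to the 8. SHIVA 2 stood apart for Saa2, with 17.36, for Saa3, with 9.95, and for Il18, with 9.22. SHIVA 4 stood apart for Fgb, with 17.74, for Fgg, with 17.05, for S100a8, with 5.26, for S100a9, with 7.63, and for Mpo, with 1.16, each time as the lowest SHIVA liver. Mpo was not above background in SHIVA 4 and passed the filter on dim probes only through SHIVA 1 to 3, so its gap was set by that filter. Saa1, Lcn2 and Orm3 had their highest value in SHIVA 2 without passing the critical value.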

How the results depend on the processing

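None of the 10 acute phase genes was called under any of the 19 alternatives, and the smallest limma adjusted p among them was 0.165, for Saa4 without WT 3. The number of them with SHIVA 2 more than 2-fold above the other SHIVA livers was 7 or 8 in the 9 alternatives where it was recomputed. The log2 fold change was above 0 for 8 or 9 of them, as that of Saa3 turned to -0.01 without WT 2. The number of all genes called was 75 and became 141 with the mean signal without background correction and with the authors' table, 13 with no filter on dim probes, 268 with array weights and 0 with the methods' t-test, and it ran from 3 to 423 as each liver was left out. Of the listed genes 2 were called with the mean signal, with the authors' table and with the filter on all 7 arrays (Pim1 and Sgk1 each time) and 3 with array weights, and 0 to 7 as each liver was left out. The cause was not tested. The share of higher calls was 49.3% and became 38.03% with normexp, 30.8% with no filter, 65.6% with the replicate block and 47.5% to 100% as each liver was left out. The replicate block, which leaves SHIVA 4 without a WT partner and so without weight, gave 32 called genes and 3 listed genes (Cxcl1, Ngp and Mpo, of which Ngp and Mpo were above background in no WT liver and passed the filter only through SHIVA 1 to 3). Deviations of livers with the same number correlated at -0.05, 0.01 and 0.24, so the numbers do not pair the mice. Directions turned for some genes near 0. Myc (0.19) had -0.25 with array weights, -0.0199 with the replicate block and -0.29 to 0.51 as each liver was left out, below 0 without WT 3, SHIVA 2 or SHIVA 4. Il22 (0.07) had -0.26 with array weights and -0.18 to 0.53 as each liver was left out. Leaving out each liver gave -0.014 to 0.66 for Saa3, -0.43 to 0.12 for Mt2, -0.19 to 0.058 for Ctf1, -0.047 to 0.41 for Socs2 and -0.12 to 0.33 for Clec4f. Of 420 recomputed deviations of single livers 19 moved by 1 SD or more. Dim probes, among them those nearest to Saa2, are limited by signal over background.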

Other observations

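Markers of further cell types were read in the same livers, with 0 called by limma in each list. The counts at an unadjusted p under 0.05 stand beside 13.3% of all genes by limma and 11.5% by the methods' t-test. Stellate cell markers, 8 of 8 tested, summed to 652 to 1112 in WT and 1129 to 1475 in SHIVA livers, with 3 higher at an unadjusted limma p under 0.05 and 3 by the methods' t-test. Sinusoidal endothelial markers, 7 of 7 tested, summed to 16161 to 19393 in WT and 13870 to 16453 in SHIVA livers, lowest in SHIVA 2, with 1 higher at that p and 0 by the t-test. Lymphocyte markers, 9 of 10 tested, summed to 6939 to 9766 in WT and 6302 to 9485 in SHIVA livers, with 0 at an unadjusted p under 0.05 by limma or the t-test. Cd4 made up 61.5% to 77.5% of the lymphocyte sum and was lowest in SHIVA 2, while SHIVA 2 was the highest liver for 5 of the 9, beside 20.3% of all genes. The lymphocyte sum without Cd4 was 2068 to 2368 in WT and 2006 to 2426 in SHIVA livers, highest in SHIVA 2. Biliary markers, 4 of 6 tested, summed to 519 to 1575 in WT and 460.02 to 827 in SHIVA livers, 73.3% to 82.7% of it from Spp1, with 1 lower at that p and 0 by the t-test. Red blood cell markers, 4 of 7 tested, summed to 49818 to 68674 in WT and 61521 to 114930 in SHIVA livers, highest in SHIVA 3 and 86.1% to 89.6% of it from Hba-a1, with 2 higher at that p and 1 by the t-test. Of the adipose list Cidec and Fabp4 were tested, with 1 higher and 1 lower at that p and 1 by the t-test.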
